A study of Mus musculus with 18 samples.

Results

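Fc receptors bind the constant region of antibodies, and 7 genes of this group were followed among 54532 genes of a mouse retinal RNA-seq count table. The genes were chosen by name: Fcgr1, Fcgr2b, Fcgr3, Fcgr4, Fcer1g, Fcgrt and Fcer2a. The choice was made with results of these data known, since Fcgrt was already seen to be lower in microglia after TGFB1 delivery. All 7 were found, each under a single Ensembl gene.

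The libraries came from rd1 (FVB) mice, a strain whose rod photoreceptors degenerate early, at postnatal day 30. Retinas had received a subretinal injection of AAV8-GFP, or of AAV8-GFP with AAV8-TGFB1, so that the GFP virus was shared by every group. Papain-dissociated cells were sorted by antibody staining into microglia, the resident macrophages of the retina, and non-microglia cells, and polyadenylated RNA was sequenced by a modified Smart-Seq2 protocol. There were 7 GFP and 7 TGFB1 microglia libraries (replicates 2 to 8) and 2 GFP and 2 TGFB1 non-microglia libraries (replicates 1 and 2). No uninjected or wild-type retina is among them, and the sources used here do not name the promoter of the TGFB1 virus. Total counts were 1582451 to 3064027 per microglia library and 2318212 to 2604930 per non-microglia library. Nothing in the labels states that each library is a different animal, and the p-values therefore refer to variation among libraries. Of the microglia libraries, 6 were marked by Xist counts and 8 by Y chromosome counts, so they did not all come from the same animals. Part of the variation, or all of it among libraries alike in these counts, could be technical.

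Markers matched the fraction labels of the libraries, and Tgfb1 matched the treatment labels in non-microglia only. A sum of 10 microglia markers reached 39658 to 49194 CPM (read counts scaled to library size by trimmed mean of M-values) in microglia and 58.2 to 69.7 CPM in non-microglia. Tgfb1 itself had 462 and 402 counts in the non-microglia TGFB1 libraries and 0 in both non-microglia GFP libraries. In microglia it had 18 to 40 counts with GFP and 17 to 59 with TGFB1, so it did not separate the treatments there. Microglia carried 285 to 840 CPM of 9 Mueller glia markers, which summed to 12624 to 14466 CPM in non-microglia.

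The classical Fc receptors fall into activating and inhibitory types. Fcgr1, Fcgr3 and Fcgr4 encode activating IgG receptors of the mouse, which signal through the shared gamma chain encoded by Fcer1g and its tyrosine-based activation motif, whereas Fcgr2b encodes the inhibitory IgG receptor. Fcgrt encodes the heavy chain of the neonatal Fc receptor, FcRn, which pairs with beta-2-microglobulin and returns endocytosed IgG and albumin to the cell surface, and Fcer2a encodes CD23, the low-affinity IgE receptor of B cells. Microglia are known to carry the IgG receptors, and FcRn is known from endothelium and from myeloid cells.

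On GRCm38, Fcgr2b (ENSMUSG00000026656, chr1:170958617-170976547, minus strand), Fcgr4 (ENSMUSG00000059089, chr1:171018920-171029761, plus strand), Fcgr3 (ENSMUSG00000059498, chr1:171051174-171064935, minus strand) and Fcer1g (ENSMUSG00000058715, chr1:171229572-171234365, minus strand) are neighbours on chromosome 1. Fcgr1 (ENSMUSG00000015947) lies at chr3:96282909-96293969 on the minus strand, Fcgrt (ENSMUSG00000003420) at chr7:45092990-45103851 on the minus strand and Fcer2a (ENSMUSG00000005540) at chr8:3681737-3694175 on the minus strand. Fcgr3 and Fcgr2b share sequence: 9.58% of the 50-base windows of Fcgr3 transcripts also occur in Fcgr2b, and 6.95% of those of Fcgr2b occur in Fcgr3 or other genes, so reads there may be split or dropped and both levels are uncertain. No 50-base window of Fcgr1, Fcgr4, Fcer1g or Fcgrt occurred in another gene. Of the exon bases of Fcgr2b, 2.68% overlap Gm38204 on the other strand, and whether counting used strand is not known here.

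The stretch before the transcription start is shown for activating receptors with few or no counts outside the microglia libraries, and for Fcgrt, which had counts in both fractions. The windows below are the 250 bases upstream of the RefSeq start on GRCm38.p6, read 5′ to 3′ on the gene's strand, for 3 activating receptors and for Fcgrt. Capitals mark GAGGAA or its reverse complement TTCCTC, a core motif bound by the myeloid factor PU.1, and CAGAC or its reverse complement GTCTG, a motif bound by SMAD proteins, the nuclear effectors of TGF-beta. Both strands were searched, and the motifs share no overlapping match in these windows. They lie at chr3:96293970-96294219 (Fcgr1, minus strand), chr1:171059404-171059653 (Fcgr3, minus strand), chr1:171018676-171018925 (Fcgr4, plus strand) and chr7:45103823-45104072 (Fcgrt, minus strand).
Fcgr1: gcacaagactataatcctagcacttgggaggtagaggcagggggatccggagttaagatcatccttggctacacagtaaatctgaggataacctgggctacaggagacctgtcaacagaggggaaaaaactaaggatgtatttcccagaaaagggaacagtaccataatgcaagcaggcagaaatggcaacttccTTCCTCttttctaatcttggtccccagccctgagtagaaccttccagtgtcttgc
Fcgr3: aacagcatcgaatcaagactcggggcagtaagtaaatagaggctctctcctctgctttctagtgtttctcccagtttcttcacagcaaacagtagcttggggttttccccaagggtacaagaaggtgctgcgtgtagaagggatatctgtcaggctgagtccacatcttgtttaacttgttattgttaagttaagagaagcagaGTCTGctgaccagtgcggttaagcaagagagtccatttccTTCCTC
Fcgr4: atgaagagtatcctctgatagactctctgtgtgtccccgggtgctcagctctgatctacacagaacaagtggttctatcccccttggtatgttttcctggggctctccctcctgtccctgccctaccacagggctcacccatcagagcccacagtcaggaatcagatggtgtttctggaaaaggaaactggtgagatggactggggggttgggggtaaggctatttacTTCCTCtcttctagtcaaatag
Fcgrt: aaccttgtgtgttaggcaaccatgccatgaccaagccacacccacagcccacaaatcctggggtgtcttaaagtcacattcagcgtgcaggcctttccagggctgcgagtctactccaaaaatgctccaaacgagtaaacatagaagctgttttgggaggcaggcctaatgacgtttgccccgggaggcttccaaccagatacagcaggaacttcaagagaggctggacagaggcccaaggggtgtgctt

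The PU.1 core stood once in each of the Fcgr1, Fcgr3 and Fcgr4 windows and had no match in those of Fcgrt, Fcgr2b, Fcer1g or Fcer2a. In all 3 it read TTCCTC. Among 32851 windows of the same length, 23.3% held the PU.1 core and 42.2% the SMAD core. The SMAD core stood in the windows of Fcgr2b, Fcgr3 and Fcer1g and at 1 of 3 starts of Fcer2a, and had no match in those of Fcgr1, Fcgr4 and Fcgrt. These are matches of letters in short windows and say nothing of whether a factor binds there.

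Microglia expressed the whole activating set, its shared chain most of all. Scaled to exon length, Fcer1g stood at 915 ± 84.9 CPM per kb over the 14 microglia libraries (SD), above Fcgr3 at 357 ± 33.0 CPM per kb and Fcgr1 at 141 CPM per kb (124 to 162). Fcgrt followed at 37.8 ± 7.48 CPM per kb, then inhibitory Fcgr2b at 22.2 ± 1.94 and Fcgr4 at 16.3 ± 3.09 CPM per kb. Each neighbour in this order was separated from the next in range, apart from Fcgr2b and Fcgr4, whose ranges overlapped although Fcgr2b was the higher in 14 of 14 libraries. The order depends on exon length: undivided, Fcgr2b (128 CPM, 5790 exon bases) stood above Fcgrt (79.5 CPM, 2102 exon bases). Fcer2a came last at 0.128 CPM per kb, with 0 to 3 counts in a library.

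**Figure D1:**
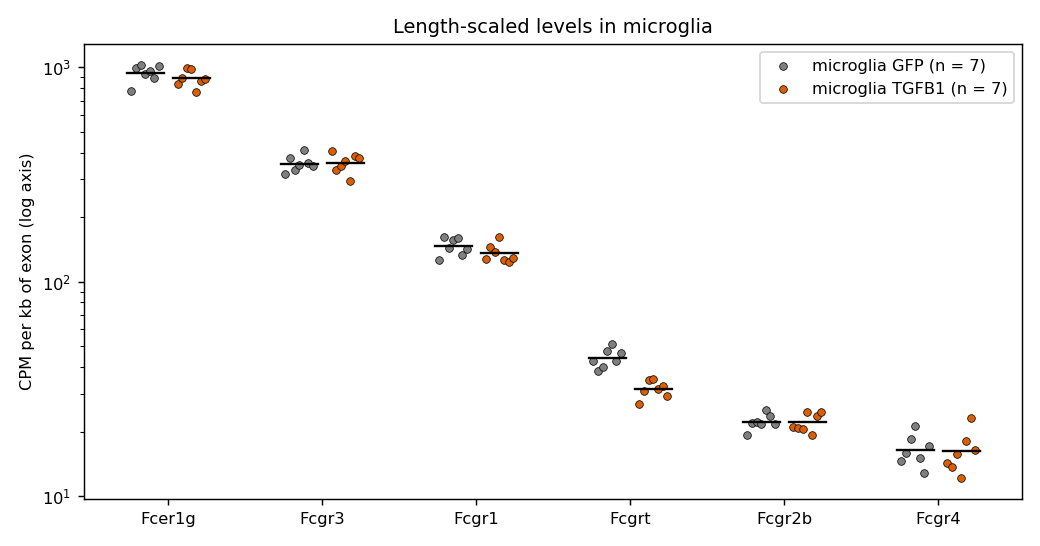
Levels of 6 Fc receptor genes in CPM per kb of exon (log axis) in each of 7 GFP and 7 TGFB1 microglia libraries; points are libraries and bars are group means. Fcer1g is highest and Fcgr4 lowest, and the GFP and TGFB1 points separate for Fcgrt.

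The balance within the activating set was steady between libraries. Fcgr3 made up 68.6 ± 1.62% of the length-scaled sum of Fcgr1, Fcgr3 and Fcgr4 in GFP microglia and 70.1 ± 2.78% in TGFB1 microglia (SD, n = 7 each). That activating sum was 23.3 ± 1.35 times Fcgr2b in GFP and 23.2 ± 1.63 times in TGFB1 microglia. Fcer1g was 1.82 ± 0.162 times the activating sum in GFP and 1.75 ± 0.152 times in TGFB1 microglia. Not divided by exon length, the activating sum was 7.91 times Fcgr2b with GFP and 7.80 times with TGFB1, and Fcer1g was 0.811 and 0.783 times the activating sum. All 3 length-scaled ratios overlapped between treatments and were not tested.

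Fcgrt was the member whose microglia values separated by treatment. In GFP microglia its lowest, median and highest levels were 80.2, 89.5 and 108 CPM, from 152 to 245 counts a library. In TGFB1 microglia they were 56.7, 66.4 and 73.9 CPM, from 94 to 200 counts. The highest TGFB1 library lay below the lowest GFP library, so the groups did not overlap.

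The group means of Fcgrt were 92.7 ± 9.77 CPM with GFP and 66.4 ± 6.09 CPM with TGFB1 (SD, n = 7 each), a log2 fold change of -0.49 with a standard error of 0.09. Because this contrast led to the choice of Fcgrt, the value is a description and carries no test. By edgeR's quasi-likelihood test with a Benjamini-Hochberg adjusted p under 0.05, 0.31% of the 10970 genes tested were called in this comparison, with 0.237% higher and 0.0729% lower. All 7 TGFB1 libraries lay below all 7 GFP libraries in 0.0456% of the genes. As bulk libraries, these cannot tell fewer cells of a kind from less RNA per cell.

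As the groups did not overlap, subsets of the microglia libraries could hardly turn the direction of Fcgrt, and their values are no support. Its log2 fold change was -0.39 in replicates 2 to 4 and -0.54 in replicates 5 to 8. It was -0.57 in the 6 libraries with Xist counts and -0.42 in the 8 with Y chromosome counts. With any 1 library left out it ran from -0.52 to -0.45. The summed Mueller glia markers had a median of 444 CPM in GFP and 368 CPM in TGFB1 microglia, with overlapping ranges, and the 9 markers, all with counts, had a median log2 fold change of -0.77 with none called. Without the 3 microglia libraries highest in these markers, Fcgrt's log2 fold change was -0.47.

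**Figure D2:**
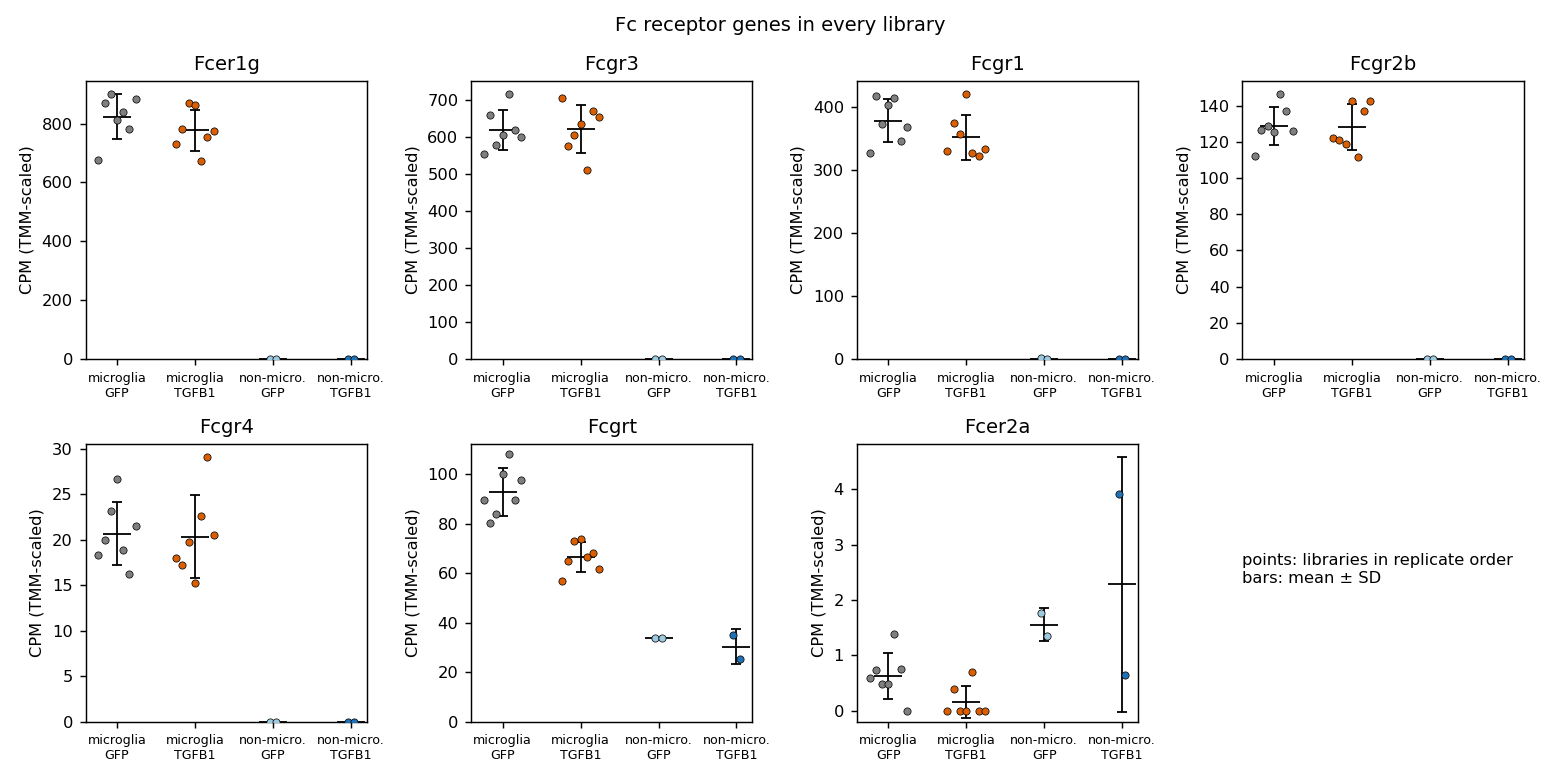
CPM of each of the 7 Fc receptor genes in all 18 libraries, on linear axes of different height; points are libraries in replicate order and bars are mean ± SD (n = 7 per microglia group, n = 2 per non-microglia group). Fcgrt has the separated microglia groups and clear non-microglia values, while the activating receptors, Fcgr2b and Fcer1g are at or near 0 in non-microglia.

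The other tested members did not pass the test in microglia. Fcer1g had a lowest, median and highest level of 677, 841 and 899 CPM with GFP and 673, 773 and 870 CPM with TGFB1. The ranges overlapped, with a log2 fold change of -0.09 ± 0.06 (SE) and an edgeR adjusted p of 0.877. Fcgr1 ran from 327 to 417 CPM with GFP (median 373) and from 321 to 420 CPM with TGFB1 (median 334), a log2 fold change of -0.11 ± 0.06 (SE, edgeR adjusted p = 0.839). Both genes had overlapping groups.

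Fcgr3, the most abundant IgG receptor, ran from 552 to 715 CPM with GFP (median 606) and from 510 to 705 CPM with TGFB1 (median 636). Its log2 fold change was 0.00 ± 0.07 (SE, edgeR adjusted p = 0.995). Inhibitory Fcgr2b ran from 112 to 146 CPM with GFP (median 127) and from 112 to 143 CPM with TGFB1 (median 122), with a log2 fold change of -0.02 ± 0.08 (SE, edgeR adjusted p = 0.992). Activating and inhibitory receptors alike overlapped between treatments. Fcgr4 ran from 16.2 to 26.6 CPM with GFP (median 19.9) and from 15.2 to 29.1 CPM with TGFB1 (median 19.7), a log2 fold change of -0.03 ± 0.16 (SE, edgeR adjusted p = 0.993). Its 31 to 57 counts a library make it the least precise of the IgG receptors. Fcer2a, the IgE receptor, had 10 counts in total over GFP microglia and 2 over TGFB1 microglia and was removed by the filter on low counts.

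In non-microglia cells Fcgrt was the 1 member with more than 12 counts in a library. It had 115 and 100 counts with GFP (33.8 and 33.7 CPM) and 108 and 78 with TGFB1 (35.2 and 25.3 CPM). The pairs overlapped, with a log2 fold change of -0.15 ± 0.21 (SE) and an edgeR adjusted p of 0.960, where 0.39% of 13598 genes tested were called. Leaving out TGFB1 replicate 2 turned the direction, to 0.07. The difference between Fcgrt's microglia and non-microglia changes was -0.32 ± 0.20 (SE) on the log2 scale, given without a test since it holds the contrast that chose Fcgrt. In that comparison 0.0131% of genes were called.

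Fcer2a had its larger counts in non-microglia, at 6 and 4 with GFP (1.76 and 1.35 CPM) and 12 and 2 with TGFB1 (3.91 and 0.650 CPM). Its microglia levels reached at most 1.38 CPM with GFP and 0.706 CPM with TGFB1, and 6 of 14 microglia libraries had no count. The 7 B cell markers summed to 2.02 to 2.60 CPM in these libraries, about the level of Fcer2a, with Cr2, Vpreb3, Cd79a and Ms4a1 at 0 to 7 counts a library and Cd79b and Pax5 at 0; their part in the Fcer2a counts was not tested. At these counts no level of Fcer2a is known closely, and 1.20% of the 50-base windows of its transcripts also occur in other genes.

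Between the sorted fractions, the receptors of the activating set were far higher in microglia. Fcgr2b, Fcgr3 and Fcgr4 had 0 counts in all 4 non-microglia libraries. Against a floor of 3 counts a library, Fcgr3 was at least 612-fold higher in microglia with GFP and at least 636-fold higher with TGFB1. Fcgr2b was at least 127.5-fold and at least 131-fold higher, and Fcgr4 at least 20.4-fold and at least 20.8-fold higher.

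Fcgr1 had 4 and 0 counts in GFP and 2 and 0 in TGFB1 non-microglia libraries, and its microglia level was 603 times (95% Poisson interval 235 to 2212) and 1081 times (299 to 8928) theirs. Fcer1g had 3 and 2 counts with GFP and 3 and 5 with TGFB1, for ratios of 1049 (450 to 3231) and 597 (303 to 1383). Floors and intervals cover counting error of the non-microglia counts only, since the microglia mean was taken as fixed. The protocol used no molecular identifiers, so copies of the same molecule may each be counted and the intervals may be too narrow. Fcgrt was the exception in size: microglia stood 2.75 times above non-microglia with GFP (2.40 to 3.16) and 2.19 times with TGFB1 (1.90 to 2.55). These sizes depend on the scaling, which the intervals do not cover. With unscaled library sizes, mean Fcgrt was 84.9 CPM in microglia and 43.6 CPM in non-microglia with GFP. With TGFB1 the unscaled means were 61.3 and 39.0 CPM, so the differences were smaller.

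The fraction difference of Fcgrt passed the test under both treatments. Its log2 fold change of microglia over non-microglia was 1.46 ± 0.15 (SE, edgeR adjusted p = 6.40e-09) with GFP and 1.13 ± 0.15 (SE, edgeR adjusted p = 4.41e-07) with TGFB1. All 6 tested members were called higher in microglia, where 29.9% of 15321 genes were called higher with GFP and 30.8% with TGFB1. Of these, 5 passed the filter on low counts through the microglia libraries alone, so their count is no support. With median-ratio size factors the median of all genes moved from -0.06 to -0.17 with GFP and from -0.04 to -0.17 with TGFB1, and Fcgrt's values became 1.34 and 1.01. The fractions were not balanced in sex: every non-microglia library had Y chromosome counts (553 to 644), but 6 microglia libraries had Xist counts instead. Its part in the fraction differences was not tested.

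Microglial RNA in the non-microglia libraries was read from the 10 microglia markers. Their non-microglia level had a median of 0.0839% of the microglia level with GFP and 0.0260% with TGFB1, and was highest for Sall1, at 0.780% and 1.02%. Fcgrt stood at 36.4% and 45.6%, far above any of these markers. Fcgr1 and Fcer1g stood at 0.0925% to 0.168%, within the range of the markers.

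The count of each gene over the summed marker counts was then taken in each library. Fcgrt counts were 0.126% to 0.229% of the marker counts in microglia and 43.6% to 56.8% in non-microglia. The log2 ratio, with a pseudocount of 0.5, was lower in microglia by a difference of -8.17, with an exact two-sided permutation p within treatments of 0.000772, the smallest the design allows, and 0.00154 after Benjamini-Hochberg adjustment over the 2 genes. The sort itself set the marker counts, so any gene with clear counts in both fractions would reach a small p here. That p is therefore no support for Fcgrt. For Fcer1g the difference was -0.03 (exact permutation p = 0.781), from 2 to 5 counts in a non-microglia library. It averages opposite directions: the mean log2 ratio was -5.76 in microglia and -6.18 in non-microglia with GFP, and -5.87 and -5.39 with TGFB1. With P2ry12, Tmem119 and Cx3cr1 as the only markers, the Fcer1g difference over both treatments was -1.14 (exact permutation p = 0.000772, the smallest possible). The non-microglia libraries also held 1239 to 1680 CPM of 8 endothelial markers, against at most 138 CPM in microglia. Which non-microglia cells carried Fcgrt was not tested.

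**Figure D3:**
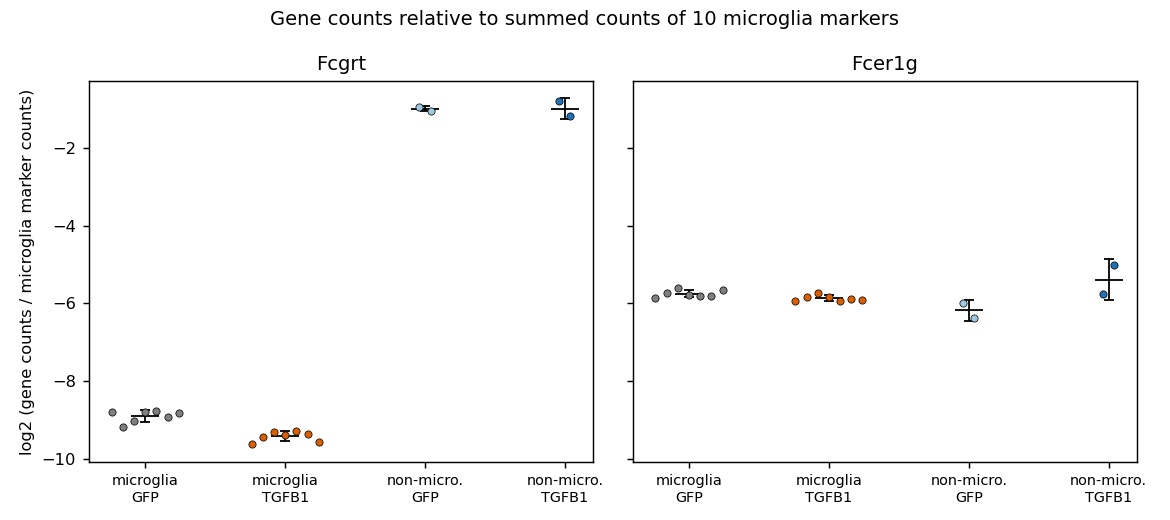
Log2 ratio of Fcgrt or Fcer1g counts to the summed counts of 10 microglia markers in all 18 libraries; points are libraries in replicate order and bars are mean ± SD (n = 7 per microglia group, n = 2 per non-microglia group). Fcgrt lies far higher in the non-microglia libraries, whereas the Fcer1g ratios of the fractions overlap.

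Downstream of the activating receptors, Src-family kinases phosphorylate the gamma chain, Syk docks on it, and adaptors and lipid kinases follow. Of 17 genes of this step, 16 were tested in microglia and 1 rose with TGFB1, where 0.237% of all genes tested were called higher, with a median log2 fold change of -0.03 beside 0.00 for all genes tested. The gene was Fgr, a Src-family kinase (ENSMUSG00000028874, chr4:132974095-133001910, plus strand), at 39.9 ± 10.3 CPM with GFP and 66.6 ± 9.27 CPM with TGFB1 (SD, n = 7 each). Its range was 24.8 to 55.2 CPM with GFP and 53.6 to 77.7 CPM with TGFB1, overlapping through 1 GFP library, replicate 5. The log2 fold change of Fgr was 0.74 ± 0.14 (SE, edgeR adjusted p = 0.0154), and its adjusted p rose to or above the threshold without GFP replicate 4 (0.0501), TGFB1 replicate 7 (0.0529) or TGFB1 replicate 8 (0.0636). The related kinase Lyn (-0.04, edgeR adjusted p = 0.944) and Syk (0.02, edgeR adjusted p = 0.994) did not pass. Beside this, 10 monocyte and border macrophage markers summed to 13.5 to 36.8 CPM with GFP (Cd209f at 0) and 17.9 to 70.9 CPM with TGFB1 (Ly6c2 at 0), and their part in the Fgr value was not tested.

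Fcgr2b recruits the inositol phosphatase SHIP1, encoded by Inpp5d, to oppose that signal. None of the 10 tested genes of 11 for inhibitory signalling was called, with a median log2 fold change of -0.08. Inpp5d was at 793 ± 80.1 CPM with GFP and 812 ± 35.7 CPM with TGFB1. The adaptors Dok3 (-0.40, edgeR adjusted p = 0.339) and Sla (-0.28, edgeR adjusted p = 0.250) had the lowest adjusted p among them.

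Among 12 adaptors and myeloid receptors listed with Fcer1g, 4 were tested and 1, the receptor gene Cd300lb, rose, beside the same 0.237% of all genes. It had a log2 fold change of 1.26 ± 0.27 (SE, edgeR adjusted p = 0.0256), from 5.36 ± 1.34 to 12.97 ± 5.56 CPM. That call was lost in 6 of the 14 fits that left out a library: TGFB1 replicates 2, 7 and 8 and GFP replicates 3, 4 and 6, with adjusted p up to 0.0995. Tyrobp, the other main activating adaptor of microglia, was abundant at 967 to 1386 CPM and had a log2 fold change of -0.03 (edgeR adjusted p = 0.971).

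FcRn's partner and its sorting machinery were then followed. None of the 12 tested genes of 16 for FcRn pairing and endosomal recycling was called with TGFB1 in microglia, with a median log2 fold change of -0.04. B2m, which encodes beta-2-microglobulin, ran from 1106 to 1750 CPM with GFP and from 1255 to 1770 CPM with TGFB1, a log2 fold change of 0.10 ± 0.07 (SE, edgeR adjusted p = 0.897). Vamp3, a vesicle fusion protein, had a log2 fold change of -0.20 (edgeR adjusted p = 0.517). None of 7 tested class I-like relatives was called, with a median of 0.15; the lowest adjusted p among them was that of Procr, a protein C receptor gene (0.33, edgeR adjusted p = 0.623). In non-microglia no gene of any of these lists was called.

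**Figure D4:**
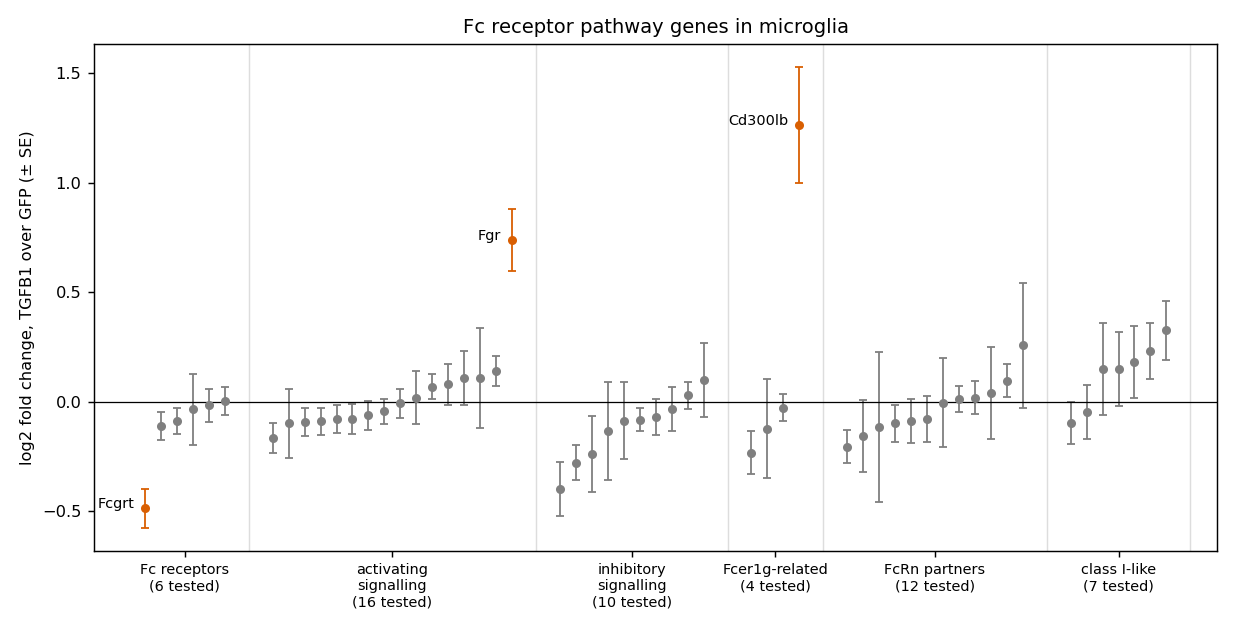
Log2 fold change of TGFB1 over GFP in microglia, with standard errors, for the tested Fc receptor genes and 5 related gene lists; orange marks an edgeR adjusted p under 0.05. Fcgrt lies below 0, Fgr and Cd300lb lie above, and the other genes are not called. Fcgrt is shown as a description since it was chosen on this contrast.

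The FcRn list was divided between the fractions. Of 15 tested genes, 8 were higher in microglia and 7 lower with GFP, and 7 each way with TGFB1, where 34.2% and 34.4% of all genes tested were lower. B2m was higher in microglia by 4.19 on the log2 scale with GFP (edgeR adjusted p = 2.56e-16), at 71.1 and 87.6 CPM in the non-microglia GFP libraries. The syntaxin gene Stx3 (-3.48, edgeR adjusted p = 7.74e-10) and the motor gene Myo5b (-5.27, edgeR adjusted p = 4.03e-09) were lower in microglia. Activating signalling genes were higher in microglia in 16 of 17 cases under each treatment, and inhibitory ones in 8 of 10.

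Predicted genes and pseudogenes among 6526 genes with a mean of at least 20 CPM were passed over. The genes whose microglia profiles were most like Fcgrt's were then found in the rest, by Pearson correlation of log2 CPM over 14 libraries. They were Tgfbi (r = 0.87), Kctd12 (0.84), Emp3 (0.83), Arsb (0.80) and Ube2e1 (0.80). With the treatment means removed the values were 0.27, 0.71, 0.40, 0.35 and 0.52, each below the value over all libraries. For Fcer1g they included Pfn1, Fdps, Aif1 and Akr1a1, at 0.86 to 0.87, and 0.85 to 0.88 within treatments. These are descriptions of libraries that share their preparation, and Tgfbi, for one, ran from 80.1 to 94.2 CPM in GFP and from 59.2 to 67.1 CPM in TGFB1 microglia.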

How the data were processed

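Polyadenylated RNA of sorted retinal cells was sequenced by a modified Smart-Seq2 protocol, per the labels. The authors deposited raw counts per Ensembl gene for 18 libraries; the submitters' processing notes name STAR, featureCounts, DESeq2 and GRCm38.p6, without roles or versions, and strand is not given in the sources used here. Of 54532 genes, 54495 matched GENCODE M21, and 0 columns of the table were left unused. Every table was fitted whole with edgeR 4.0.16 in R 4.3.3: filterByExpr, TMM factors and a robust quasi-likelihood test with Benjamini-Hochberg adjustment at 0.05, tested on simulated data. Treatment contrasts used the libraries of 1 fraction; fraction contrasts used all 18. Alternatives were DESeq2 1.42.0, limma 3.58.1 (voom), other scaling, no filter, a replicate block, covariates, subsets and each library left out. CPM values are TMM-scaled, and Poisson intervals are at 95%. Exact permutation used scipy 1.17.1. Sequences come from RefSeq, GRCm38.p6; all 7 members matched, and protein sequences were not used here. The members, the gene lists and the rule for named genes were chosen with earlier results of these data known. The rule took all members, up to 4 called genes of a list by smallest p (up to 2 where none was called) and the 5 most alike profiles; Lyn, Syk, Inpp5d, Tyrobp, Igkc, the IgG genes, Trim21 and Fcrls fall outside it and were added after their values were seen. Some genes that the rule covers are not reported here. Precision follows depth: 1582451 to 3064027 counts a library.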

Additional observations from a re-analysis of the deposited data

How the results depend on the processing

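Fcgrt's microglia log2 fold change was below 0 in 17 of 17 settings other than leaving out a library, from -0.57 to -0.39. As its choice rests on this contrast, these are values without a test. The subsets gave the values furthest from -0.49: replicates 2 to 4 (-0.39), replicates 5 to 8 (-0.54), libraries with Xist counts (-0.57) and libraries with Y counts (-0.42), the last pair chosen after seeing the data. Direction was not fixed for members near 0: Fcgr2b was 0.00 in replicates 5 to 8 (0.00498) and 0.094 with Xist counts; Fcgr3 was -0.00332 with no filter, -0.0071 by limma voom, -0.038 in replicates 5 to 8, -0.067 with a Mueller marker covariate and -0.14 with Y counts; Fcgr4 was 0.073, 0.035 and 0.27 in replicates 5 to 8, with the Mueller covariate and with Xist counts. The cause was not tested.

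Genes called in microglia numbered 34, against 64 with no filter, 52 by DESeq2, 15 in a fit of all 18 libraries, 56 with an Xist or Y covariate, 20 with the Mueller covariate, 4 in replicates 2 to 4, 4 in replicates 5 to 8, 19 with Xist counts and 3 with Y counts. In non-microglia 53 were called, against 102 with no filter and 4 in the fit of all 18; for the difference of effects 2 were called, against 12 with no filter and 1 without robust dispersion. With the replicate number as a block, 60 genes were called in microglia, 109 in non-microglia and 1 for the difference. Same-numbered libraries correlated at -0.12 to 0.22 in microglia and -0.07 in non-microglia, over 0.1 in 5 of the 7 microglia pairs. The main fits did not take the number as a pairing, and whether it marks pairs is not known here. As a hint from the data, 7 of 7 same-numbered microglia pairs were alike in having Xist or Y counts, but not every library correlated best with its own number. Between the fractions no block was fitted, since they share 1 replicate number only.

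Leaving out 1 library gave 16 to 34 genes called in microglia, 28 to 110 in non-microglia, 8383 to 10053 and 8548 to 10255 between fractions with GFP and TGFB1, and 1 to 2 for the difference. Fcgr2b ran from -0.045 to 0.016, Fcgr3 from -0.032 to 0.042, Fcgr4 from -0.15 to 0.037, and Fcgrt in non-microglia from -0.41 to 0.072. The Fcer1g marker ratio ran from -0.22 to 0.23, and was -1.14 with 3 markers. Not divided by exon length, an alternative chosen after seeing the data, the activating sum over Fcgr2b was 7.91 with GFP and 7.80 with TGFB1, Fcer1g over the activating sum 0.811 and 0.783, and the Fcgr3 share 60.8% and 62.5%. With unscaled library sizes, mean CPM moved to 118 for Fcgr2b in GFP microglia, and in non-microglia to 1.01 for Fcer1g, 43.6 for Fcgrt and 2.01 for Fcer2a with GFP and to 39.0 for Fcgrt with TGFB1. With no filter, Fcer2a was lower in microglia with TGFB1 (-3.65, edgeR adjusted p = 0.00463, with 12 of the 14 non-microglia counts in 1 library) and not with GFP (-1.27, edgeR adjusted p = 0.415). With 2 non-microglia libraries a group and 78 to 115 Fcgrt counts, small changes there were not detectable.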

Other observations

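Of the immunoglobulin genes, 1 heavy chain gene was abundant in the microglia libraries. It encodes IgM, which is not among the ligands named above for these receptors. Ighm, the IgM constant region (ENSMUSG00000076617, chr12:113418558-113422730 on GRCm38, minus strand), was at 616 ± 61.0 CPM with GFP and 550 ± 32.7 CPM with TGFB1 (SD, n = 7 each), from 741 to 1929 counts a library. It had 0 counts in all 4 non-microglia libraries. Its level was near that of Fcgr3, and its log2 fold change with TGFB1 was -0.17 (edgeR adjusted p = 0.434). Ighd, the IgD constant region, was at 32.9 ± 4.21 and 26.5 ± 3.86 CPM.

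The light chain gene Igkc had 0 counts in every library, and the IgG genes Ighg1, Ighg2b, Ighg2c and Ighg3 had at most 4 counts in any. Of the B cell markers, Cd79b stood at 25.4 ± 5.08 CPM in GFP and 21.5 ± 6.44 CPM in TGFB1 microglia, while Ms4a1, Cd79a and Pax5 each had a mean under 0.5 CPM. Trim21, the cytosolic Fc receptor, was at 29.9 ± 6.76 CPM in GFP microglia and 20.9 ± 0.463 CPM in GFP non-microglia (n = 2), and at 31.0 ± 4.23 and 12.7 ± 2.80 CPM with TGFB1; its non-microglia log2 fold change with TGFB1 was -0.71 (edgeR adjusted p = 0.510). Fcrls, an Fc receptor-like gene of microglia, was at 49.96 ± 7.29 CPM in GFP and 45.1 ± 12.5 CPM in TGFB1 microglia and at 0 counts in non-microglia.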
